A study of Mus musculus with 6 samples.

Results

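The genes described here encode the kinetochore and the spindle checkpoint. There are 42 of them, out of 19938 genes that the array reports with a probe set of their own. They were chosen by name from the established membership of these complexes, with earlier results of these data known. All 42 were measured, each by 1 probe set annotated to that gene alone. They fall into 8 groups by role, which are the checkpoint proteins (6 genes), the RZZ complex with its partner Zwint (4), the NDC80 complex (4), the MIS12 complex (4), the SKA complex (3), centromere chromatin and the inner kinetochore (14), corona proteins (2), and the chromosomal passenger complex with the shugoshins (5).

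The kinetochore is the protein assembly that forms on centromere chromatin in each round of division and ties the chromosome to spindle microtubules. Inner proteins bind nucleosomes that carry the histone variant Cenpa, outer complexes grip the microtubule, and checkpoint proteins gather at kinetochores that are not yet attached, where they build an inhibitor of the anaphase-promoting complex and so hold the cell before anaphase. Transcripts of many of these genes accumulate late in the cell cycle, under promoters that are repressed in resting cells, so their RNA is common in dividing lines such as neuroblastoma.

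Levels were compared between 2 groups of N2A (neuro 2A) cells, a mouse neuroblastoma line grown in serum-containing medium. In the Dali knockdown group cells were transiently transfected with 1.5 ug of a plasmid expressing a short hairpin RNA against Dali, a long non-coding RNA transcribed beside the gene of the neural transcription factor Pou3f3. Control cells received a non-targeting vector in the same way. In both groups cells were harvested 2.5 days later, and 200 ng of total RNA per sample was hybridised, after labelling, to 1 Affymetrix Mouse Gene 1.0 ST array. Each group held 3 arrays, numbered 1 to 3 in the labels. The hairpin was driven by the U6 promoter, and no selection of transfected cells was described for these samples, so cells without the plasmid may be among those measured. A single Dali construct was set against a single control vector, and on these arrays other effects of that construct cannot be told apart from loss of Dali. The paper reports similar changes by RT-qPCR with further Dali constructs for nearly all of the genes it retested. Whether kinetochore genes were among those was not examined here. Replicates are described as biological, but which cultures or days they represent is not stated, and the p-values therefore reflect only the spread among these arrays.

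All values below are log2 RMA values, the normalised probe set levels that were deposited, and a difference is the mean of the knockdown arrays minus the mean of the control arrays. Levels of different probe sets are not compared with each other, since probes differ in brightness. A gene is said to have risen where limma gave a Benjamini-Hochberg adjusted p under 0.1 over all 11705 probe sets tested and the fold was at least 1.3, which is 0.38 on the log2 scale. Of the 42 genes, 38 (90.5%) passed a filter on spread over the 6 arrays, as did 51.1% of all genes. That spread is taken over both groups together, so a difference between the groups adds to it. Zw10, Mis12, Cenpb and Cenpo did not pass. Values of those 4 come from the fit without the filter.

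Array medians lay between 7.86 and 7.93 and correlations between arrays between 0.9904 and 0.9975. No probe set was annotated to Dali, so its depletion was not analysed here, and Pou3f3 differed by 0.04 (SE 0.15). Markers of sympathetic neuroblastoma had means of 9.03 to 13.48 over the 14 measured, and 0 were called. Of these, 11 were lower and 3 higher in knockdown cells, where 55% of all genes were higher. All knockdown arrays lay below all control arrays for 5 of them, against 6.84% of all annotated probe sets. They lay above for 1, against 8.59%. Markers of fibroblasts, macrophages, astrocytes, endothelium and epithelium lay between 5.09 and 8.67, and 0 of them were called. In the pair of arrays numbered 1 the medians of these 5 lists were higher in the knockdown array, by 0.26, 0.15, 0.12, 0.11 and 0.26, and their part in the results below was not tested.

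Kinetochore and checkpoint transcripts were higher in Dali knockdown cells across every role group, by modest amounts. All 42 genes had a higher mean in knockdown than in control cells, as did 55% of all genes. Their median difference was 0.35, with quartiles of 0.22 and 0.49, beside a median of 0.02 and quartiles of -0.07 and 0.10 over all genes. The differences ran from 0.01 for Cenpb to 0.72 for Kntc1, and 28 of the 42 lay above the 95th percentile of all genes. These were bulk samples, in which a larger share of dividing cells and more of each RNA per dividing cell cannot be told apart.

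**Figure D1:**
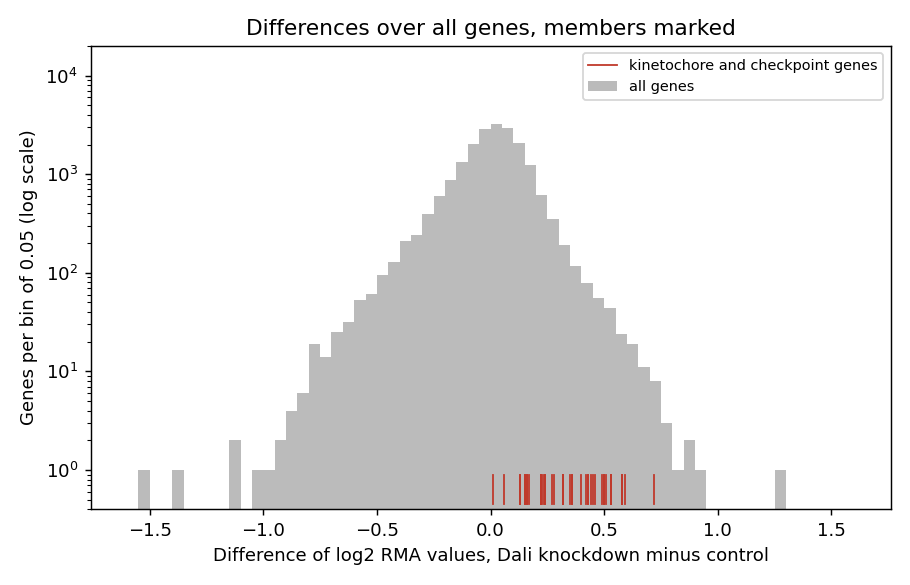
Number of genes (vertical axis, log scale) in bins of the difference of log2 RMA values, Dali knockdown minus control (horizontal axis), for 19938 genes in grey, with red ticks for the 42 kinetochore and checkpoint genes. All ticks lie to the right of 0, from 0.01 to 0.72, with a median of 0.35 beside 0.02 for all genes.

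Few of these differences passed the test on their own. With limma, 2 of the 38 genes tested rose, Kntc1 and Oip5, 0 fell and 36 were not called, where 0.367% of all probe sets tested rose and 0.769% fell. The 95% interval of the difference lay above 0 for 23 of the 42 genes and reached 0 for 19. In the fit over all annotated probe sets, from which every unadjusted p here is taken, a p under 0.05 was found for 24 of the 42 and for 11.1% of all genes. A total of 19 were past the fold limit, as were 1.49% of all genes.

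Arrays that carried the same replicate number tended to be high or low together, least so for number 1. Taking the number as a block changed the count of calls. With the block, 19 of the 38 rose and 0 fell, where 2.77% of all probe sets tested rose and 4.89% fell. These 19 were the 19 genes past the fold limit. Without the variance filter the block called the same 19 higher, against 1.38% of all probe sets. Dropping the fold limit, a choice made after the data were seen, gave 31 higher with the block, against 9.34% of all probe sets tested. The fit without the block leaves 4 residual degrees of freedom and the fit with it leaves 2. Counts of calls given below for each role group stand beside 0.367% of all probe sets tested that rose, or 2.77% with the block. Counts at an unadjusted p under 0.05 stand beside 11.1% of all genes.

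The count rested on single arrays. It was 0 without knockdown replicate 1 (0.00854% of all probe sets tested rose) or without control replicate 2 (0.094%). It was 1 without knockdown replicate 3 (0.256%) or without control replicate 1 (0.154%). Without knockdown replicate 2 it was 12 (1.49%), and without control replicate 3 it was 3 (0.931%). It also rested on the filter, with 0 called when all annotated probe sets were tested, where 0.0513% of all rose (lowest limma adjusted p = 0.13, with 24 at an unadjusted p under 0.05).

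Arrays differed in these genes within each group. The mean over the 42 genes was 10.26, 10.01 and 10.30 in knockdown arrays 1 to 3, against 10.00, 9.64 and 9.87 in control arrays 1 to 3. Replicate 2 was the lowest array of both groups, and the level of knockdown replicate 2 nearly equalled that of control replicate 1. Control replicate 2 was the lowest of the 6 arrays for 38 of the 42 genes, while the highest array was knockdown replicate 1 for 20 genes and knockdown replicate 3 for 20. Within pairs of one number the median difference was 0.26, 0.39 and 0.43 for numbers 1 to 3, beside 0.05, 0.00 and -0.02 over all genes. The knockdown array was the higher one in 41, 42 and 41 of the 42 pairs. In 40 genes it was higher in all 3 pairs, as in 21.5% of all genes, and the exceptions were Cenpb in pair 3 (-0.22) and Cenpq in pair 1 (-0.13). For 18 of the 42 genes all knockdown arrays lay above all control arrays, against 8.59% of all annotated probe sets, and for 0 they lay below, against 6.84%. The groups overlapped for the other 24.

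**Figure D2:**
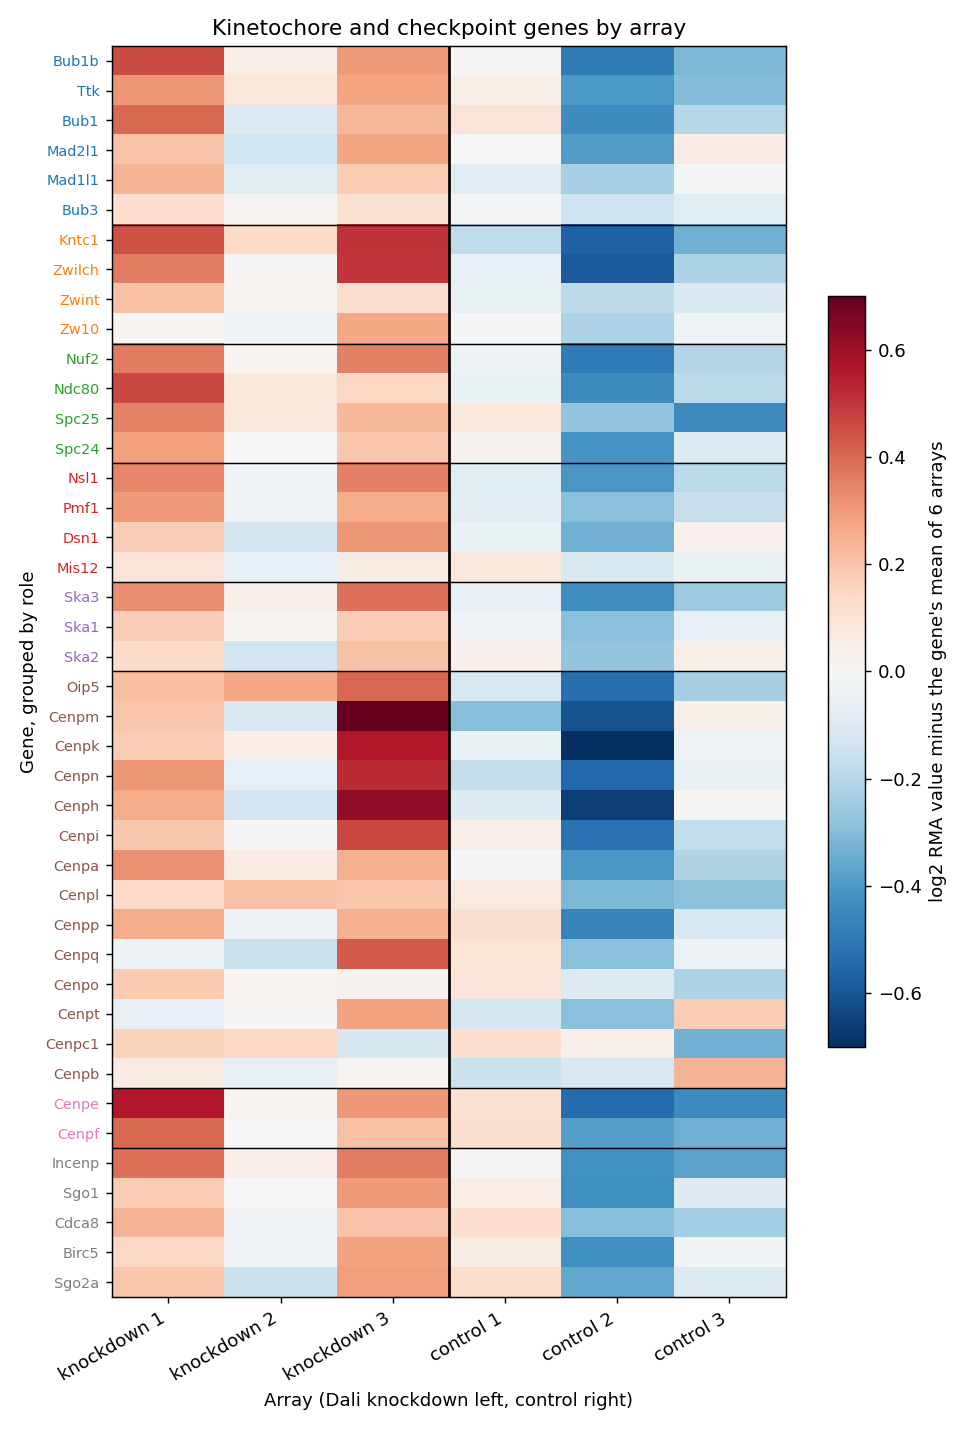
Log2 RMA value minus the gene's mean over the 6 arrays (colour) for the 42 genes, grouped by role (vertical axis), in the 3 Dali knockdown arrays on the left and the 3 control arrays on the right (horizontal axis). Control 2 is the lowest array for 38 genes, and knockdown 1 and knockdown 3 are each the highest for 20.

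Promoters of these genes were searched for the elements known to time transcription in the cell cycle, because the genes moved together. The cell cycle genes homology region (CHR), TTTGAA, is bound by MuvB complexes, which repress such genes in resting cells and activate them late in the cycle. CCAAT is the box bound by NF-Y, and TTCCCGC or TTGGCGC or TTGCCGC or TTCGCGC were taken as E2F sites. RefSeq promoter windows (GRCm38.p6) of 300 bases, from 250 before to 50 after the start, were found for 37 of the 42 genes, 42 windows in all. Windows were not found for Zwilch, Nsl1, Ska1, Spc24 and Incenp. Both strands were read, and a CHR and a CCAAT box can share bases. Windows of one gene were counted separately, so counts of windows are not counts of genes. The windows of Bub3 overlap, and its CHR and CCAAT letters are counted in each. Cenpk also has several windows.

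The CHR letters occurred in 16 of the 42 windows (38.1%), beside 17.9% of all 32851 windows. At least 1 CCAAT was found in 29 windows (69%), beside 37.4% of all windows, and more than 1 in 17 windows (40.5%), beside 11.7%. E2F letters were found in 12 windows (28.6%), beside 9.57%. Over the 21263 windows of protein-coding genes, the shares were 16% for the CHR and 12.1% for E2F letters. They were 38.2% for at least 1 CCAAT and 12.8% for more than 1. The 15 genes with a CHR had a median difference of 0.43, and the 22 without one of 0.23. For CCAAT the medians were 0.40 in the 25 genes with it and 0.23 in the 12 without, and for E2F letters 0.23 in the 12 genes with them and 0.36 in the 25 without. Of the 19 genes past the fold limit, 10 were found with a CHR, 13 with CCAAT and 4 with E2F letters. No window was found for Zwilch (difference 0.58), Incenp (0.53), Nsl1 (0.45), Spc24 (0.32) and Ska1 (0.24). Those genes enter none of the medians and could not be found with any of these letters. These are descriptions of letters in a window, with no test, and a match is not a binding site.

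The bases from 120 before to 30 after the RefSeq start are shown for Kntc1 and Oip5, which rose, for Ttk and Cenpa, which carry a CHR with more than 1 CCAAT, and for Cenpb, which had the smallest difference. They were chosen after their values were seen, and other genes with such letters differed little. Bub3 (difference 0.16) also carries a CHR with more than 1 CCAAT, and Mis12 (0.06) and Ska2 (0.13) carry more than 1 CCAAT. Capitals mark CHR, CCAAT and E2F letters on either strand, so that TTCAAA marks a CHR on the opposite strand. The letters ATTGG likewise mark an NF-Y box there.
Kntc1, chr5:123749606-123749755, plus strand: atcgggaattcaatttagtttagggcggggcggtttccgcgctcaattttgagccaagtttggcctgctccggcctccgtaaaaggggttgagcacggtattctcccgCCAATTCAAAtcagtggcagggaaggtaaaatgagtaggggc
Oip5, chr2:119618476-119618625, minus strand: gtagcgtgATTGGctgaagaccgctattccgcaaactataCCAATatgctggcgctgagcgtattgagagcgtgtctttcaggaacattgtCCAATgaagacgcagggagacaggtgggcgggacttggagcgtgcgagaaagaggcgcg
Ttk, chr9:83834569-83834718, plus strand: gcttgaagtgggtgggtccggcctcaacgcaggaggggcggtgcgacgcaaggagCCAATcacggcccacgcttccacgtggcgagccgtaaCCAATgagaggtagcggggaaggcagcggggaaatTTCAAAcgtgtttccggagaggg
Cenpa, chr5:30666766-30666915, plus strand: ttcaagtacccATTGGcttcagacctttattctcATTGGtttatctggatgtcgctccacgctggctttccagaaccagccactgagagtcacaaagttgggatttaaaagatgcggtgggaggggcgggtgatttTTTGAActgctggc
Cenpb, chr2:131180038-131180187, minus strand: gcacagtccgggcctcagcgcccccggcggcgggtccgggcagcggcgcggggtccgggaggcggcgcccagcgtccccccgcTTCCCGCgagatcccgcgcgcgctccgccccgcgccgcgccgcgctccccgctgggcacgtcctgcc
In Kntc1 the CCAAT and the CHR share 1 base. The stretch of Oip5 holds 3 CCAAT boxes, and its CHR letters begin just past the end of the stretch, at base 34 counted from the start. That of Cenpb holds 1 set of E2F letters and neither of the others. The start used matched the annotated gene start for Oip5 and Cenpb, but not for Kntc1, Ttk and Cenpa.

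The RZZ complex brings dynein and the checkpoint pair Mad1l1 and Mad2l1 to unattached kinetochores, and Zwint links it to the outer kinetochore. It held the largest difference of all 42 genes. Of the 3 members tested, 1 rose, or 2 with the replicate block, and the median difference of the 4 was 0.40. Kntc1, the large subunit also called Rod, stood at 9.90, 9.59 and 9.96 in knockdown arrays, against 9.28, 8.89 and 9.12 in control arrays. The lowest knockdown array lay above the highest control array, and the gap was similar in the 3 pairs (0.63, 0.70 and 0.84). Kntc1 rose 1.65-fold (9.82 ± 0.20 in knockdown and 9.09 ± 0.20 in control cells, SD, n = 3 each, difference 0.72, SE 0.15, limma adjusted p = 0.053). Its adjusted p was 0.37 without knockdown replicate 1, 0.13 without control replicate 2 and 0.13 without the variance filter, and it was not called in any of these 3.

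Zwilch, another subunit, had 10.32, 9.97 and 10.46 in knockdown arrays, against 9.90, 9.37 and 9.74 in control arrays. The groups did not overlap, with a difference of 0.58 (SE 0.17, limma adjusted p = 0.13, or 0.011 and called with the replicate block). Zw10, which binds dynein adaptors and also works in membrane traffic, had 9.13, 9.09 and 9.39 in knockdown arrays, against 9.11, 8.90 and 9.09 in control arrays. Its groups overlapped, and it did not pass the filter on spread (difference 0.17, 95% interval -0.07 to 0.42). Zwint had 12.29, 12.10 and 12.20 in knockdown arrays, against 12.03, 11.90 and 11.98 in control arrays. Its groups were separate by a narrow margin, with a difference of 0.23 (SE 0.13, limma adjusted p = 0.50).

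The 6 checkpoint proteins had a median difference of 0.29, and 0 were called by limma, or 2 with the replicate block. At an unadjusted p under 0.05 there were 2. The kinases and Bub1b showed the larger differences, and Bub3, Mad1l1 and Mad2l1 the smaller ones. Ttk, the kinase also known as Mps1 that starts the checkpoint signal, had 9.94, 9.71 and 9.91 in knockdown arrays, against 9.67, 9.23 and 9.33 in control arrays. All its knockdown arrays were above all control arrays (difference 0.44, SE 0.15, limma adjusted p = 0.20, or 0.022 and called with the block). Bub1, the kinase that docks other checkpoint proteins, had 11.80, 11.31 and 11.63 in knockdown arrays, against 11.49, 10.96 and 11.20 in control arrays. Knockdown replicate 2 lay below control replicate 1, so the groups overlapped, although each pair differed by 0.31 to 0.42 (difference 0.36, SE 0.16, limma adjusted p = 0.37).

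Bub1b encodes BubR1, a part of the complex that blocks the anaphase-promoting complex. It had 11.34, 10.93 and 11.18 in knockdown arrays, against 10.89, 10.39 and 10.57 in control arrays. The groups stood just apart, since knockdown replicate 2 exceeded control replicate 1 by a narrow margin (difference 0.53, SE 0.16, limma adjusted p = 0.14, or 0.011 and called with the block). Bub3, the adaptor that seats Bub1 and Bub1b on the outer kinetochore, had 12.35, 12.25 and 12.34 in knockdown arrays, against 12.22, 12.09 and 12.15 in control arrays. Its groups were separate but close (difference 0.16, 95% interval -0.11 to 0.44).

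Mad2l1, which captures the activator Cdc20, had 12.63, 12.29 and 12.71 in knockdown arrays, against 12.43, 12.04 and 12.49 in control arrays. The groups overlapped, with replicate 2 low in both, while the pairs differed evenly, by 0.20, 0.25 and 0.22 (difference 0.22, SE 0.16, limma adjusted p = 0.60). With the block the adjusted p was 0.094, and the difference stayed below the fold limit. Mad1l1, its anchor at the kinetochore, had 10.39, 10.07 and 10.33 in knockdown arrays, against 10.07, 9.92 and 10.14 in control arrays. Knockdown replicate 2 fell among the control arrays (difference 0.22, SE 0.14, limma adjusted p = 0.55).

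**Figure D3:**
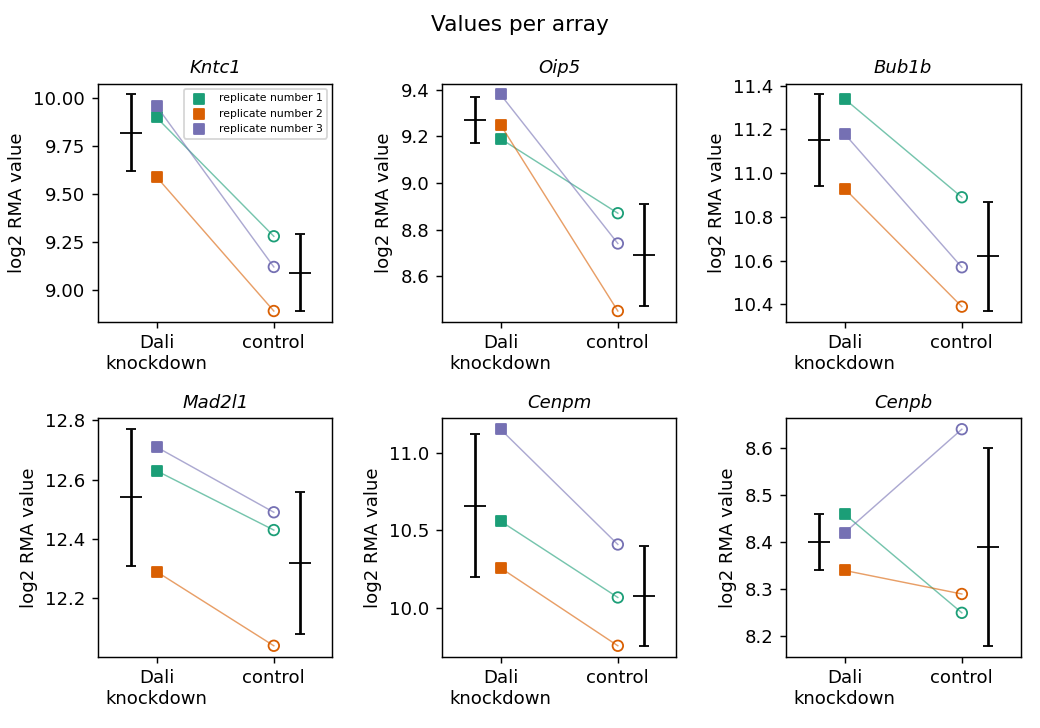
Log2 RMA values (vertical axis) of Kntc1, Oip5, Bub1b, Mad2l1, Cenpm and Cenpb in each array, Dali knockdown left as filled squares and control right as open circles, with lines joining arrays that share a number and black bars for the group mean ± SD (n = 3). Groups are separate for Kntc1, Oip5 and Bub1b and overlap for Mad2l1, Cenpm and Cenpb.

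The NDC80 complex is the rod-shaped coupler whose Ndc80 and Nuf2 ends bind the microtubule and whose Spc24 and Spc25 ends bind the inner kinetochore. Its 4 subunits had a median difference of 0.44, and 0 were called by limma, or 3 with the replicate block, while all 4 had an unadjusted p under 0.05. Ndc80 had 10.10, 9.71 and 9.78 in knockdown arrays, against 9.59, 9.19 and 9.45 in control arrays. Its groups were separate, and knockdown replicate 1 was well above the others (difference 0.46, SE 0.15, limma adjusted p = 0.20, or 0.016 and called with the block). Nuf2 had 10.90, 10.55 and 10.89 in knockdown arrays, against 10.50, 10.04 and 10.33 in control arrays. These groups were separate too, by the step from control replicate 1 to knockdown replicate 2 (difference 0.49, SE 0.16, limma adjusted p = 0.17, or 0.013 and called with the block). Spc25 had 10.30, 10.03 and 10.18 in knockdown arrays, against 10.03, 9.68 and 9.51 in control arrays. Knockdown replicate 2 and control replicate 1 nearly met (difference 0.43, SE 0.15, limma adjusted p = 0.23, or 0.030 and called with the block). Spc24 spanned 8.74 to 9.02 in knockdown arrays, against 8.32 to 8.76 in control arrays, and was not called in either fit (difference 0.32).

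The MIS12 complex joins the inner kinetochore to NDC80. Its subunits differed unevenly, with a median of 0.29 over the 4. Of the 3 tested, 0 were called, or 1 with the replicate block, and 2 of the 4 had an unadjusted p under 0.05. Nsl1 had 10.73, 10.37 and 10.74 in knockdown arrays, against 10.30, 9.98 and 10.20 in control arrays. It was the member with the widest gap, and its groups were separate (difference 0.45, SE 0.15, limma adjusted p = 0.19, or 0.015 and called with the block). Pmf1, the mouse Nnf1 subunit, had 9.54, 9.21 and 9.50 in knockdown arrays, against 9.17, 8.95 and 9.08 in control arrays. Its groups were separate by a narrow margin, and its difference of 0.35 (SE 0.14, limma adjusted p = 0.30) stayed below the fold limit. Dsn1, which Aurora B phosphorylates to stabilise the assembly, had 10.23, 9.93 and 10.37 in knockdown arrays, against 10.01, 9.72 and 10.09 in control arrays. Knockdown replicate 2 lay below control replicates 1 and 3, so the groups overlapped (difference 0.24, SE 0.15, limma adjusted p = 0.56). Mis12 itself had 9.43, 9.28 and 9.39 in knockdown arrays, against 9.41, 9.23 and 9.29 in control arrays. It showed one of the smallest differences of the 42 (0.06, 95% interval -0.14 to 0.25) and did not pass the filter on spread.

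The SKA complex follows the ends of microtubules and strengthens their hold on NDC80. Ska3 stood apart from its partners, and the median of the 3 was 0.24, with 0 called by limma, or 1 with the replicate block. At an unadjusted p under 0.05 there were 2. Ska3 had 10.56, 10.27 and 10.62 in knockdown arrays, against 10.18, 9.80 and 9.98 in control arrays. Its groups were separate (difference 0.50, SE 0.15, limma adjusted p = 0.14, or 0.014 and called with the block). Ska1, the microtubule-binding subunit, had 8.85, 8.70 and 8.86 in knockdown arrays, against 8.66, 8.39 and 8.62 in control arrays. Only a narrow step parted its groups (difference 0.24, SE 0.14, limma adjusted p = 0.49). Ska2 had 10.62, 10.35 and 10.69 in knockdown arrays, against 10.52, 10.21 and 10.53 in control arrays. Its groups overlapped, and the interval of its difference ran from -0.18 to 0.44.

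Centromere chromatin and the inner kinetochore formed the largest and most uneven group, with differences from 0.01 to 0.58 and a median of 0.39 over 14 genes. Of the 12 tested, 1 rose, Oip5, or 7 with the replicate block, and 7 of the 14 had an unadjusted p under 0.05. Oip5 belongs to the Mis18 complex, which marks centromeres for the loading of new Cenpa. It had 9.19, 9.25 and 9.38 in knockdown arrays, against 8.87, 8.45 and 8.74 in control arrays. The knockdown arrays lay close together and clear of the control arrays, but the gap varied between pairs (0.32, 0.80 and 0.63). Oip5 rose 1.5-fold (9.27 ± 0.10 in knockdown and 8.69 ± 0.22 in control cells, SD, n = 3 each, difference 0.58, SE 0.15, limma adjusted p = 0.09). Its adjusted p was 0.39 without knockdown replicate 1, 0.16 without knockdown replicate 3, 0.14 without control replicate 1, 0.40 without control replicate 2 and 0.14 without the variance filter, and it was not called in any of these.

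Cenpa, the histone variant that defines the centromere, had 11.46, 11.20 and 11.39 in knockdown arrays, against 11.13, 10.73 and 10.93 in control arrays. Its groups were separate (difference 0.42, SE 0.15, limma adjusted p = 0.22, or 0.019 and called with the block). Cenpn reads the Cenpa nucleosome together with Cenpl. It had 12.34, 11.98 and 12.56 in knockdown arrays, against 11.87, 11.49 and 11.99 in control arrays. Knockdown replicate 2 and control replicate 3 were almost equal, so the groups just overlapped (difference 0.51, SE 0.17, limma adjusted p = 0.20, or 0.011 and called with the block). Cenpl had 7.58, 7.65 and 7.64 in knockdown arrays, against 7.51, 7.13 and 7.16 in control arrays. Its knockdown arrays were nearly level and its groups separate, with a difference of 0.36 that stayed below the fold limit (SE 0.14, limma adjusted p = 0.30).

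Cenph, Cenpi, Cenpk and Cenpm belong to the constitutive network on which the outer kinetochore is built, and all 4 were called with the replicate block but not without it. Their differences rested in part on single arrays, as given beside each. Cenpm spanned 10.26 to 11.15 in knockdown arrays, against 9.76 to 10.41 in control arrays, and differed by 0.58 (limma adjusted p = 0.22, or 0.011 with the block), or by 0.33 without knockdown replicate 3. Cenpk spanned 9.74 to 10.25 in knockdown arrays, against 8.99 to 9.66 in control arrays, and was the only one of these 4 with separate groups (difference 0.53, limma adjusted p = 0.22, or 0.023 with the block). Without control replicate 2 the difference of Cenpk was 0.31. Cenph spanned 9.41 to 10.16 in knockdown arrays, against 8.88 to 9.55 in control arrays (difference 0.50, limma adjusted p = 0.29, or 0.014 with the block), and differed by 0.29 without control replicate 2 and 0.31 without knockdown replicate 3. Cenph varied widely within groups, with an SD of 0.37 in knockdown and 0.36 in control arrays. Cenpi spanned 9.02 to 9.50 in knockdown arrays, against 8.51 to 9.08 in control arrays (difference 0.43, limma adjusted p = 0.28, or 0.041 with the block), and differed by 0.27 without control replicate 2.

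Other centromere proteins differed little. Cenpb, which binds a short motif in centromeric satellite DNA, had 8.46, 8.34 and 8.42 in knockdown arrays, against 8.25, 8.29 and 8.64 in control arrays. Control replicate 3 was the highest of the 6 arrays, which occurred for no other gene of the 42, and the difference was 0.01 (95% interval -0.25 to 0.27). Cenpc1, which bridges Cenpa nucleosomes and the MIS12 complex, had 9.84, 9.83 and 9.57 in knockdown arrays, against 9.80, 9.72 and 9.35 in control arrays. Replicate 3 was its lowest array in both groups, unlike most of the other genes, and the groups overlapped (difference 0.13, 95% interval -0.19 to 0.45). Cenpt, which binds NDC80 directly, had 10.09, 10.16 and 10.43 in knockdown arrays, against 10.03, 9.86 and 10.33 in control arrays. Its highest values were in replicate 3 of both groups (difference 0.15, 95% interval -0.17 to 0.47).

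Cenpq, Cenpo and Cenpp belong to one subcomplex of the same network. Cenpq had 9.27, 9.15 and 9.73 in knockdown arrays, against 9.40, 9.01 and 9.26 in control arrays. Most of its difference of 0.16 (95% interval -0.18 to 0.51) came from knockdown replicate 3, and the sign turned in pair 1. Cenpo spanned 8.63 to 8.80 in knockdown arrays, against 8.40 to 8.70 in control arrays (difference 0.15). Cenpp spanned 8.12 to 8.42 in knockdown arrays, against 7.69 to 8.27 in control arrays (difference 0.32, limma adjusted p = 0.42). Both overlapped between the groups.

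**Figure D4:**
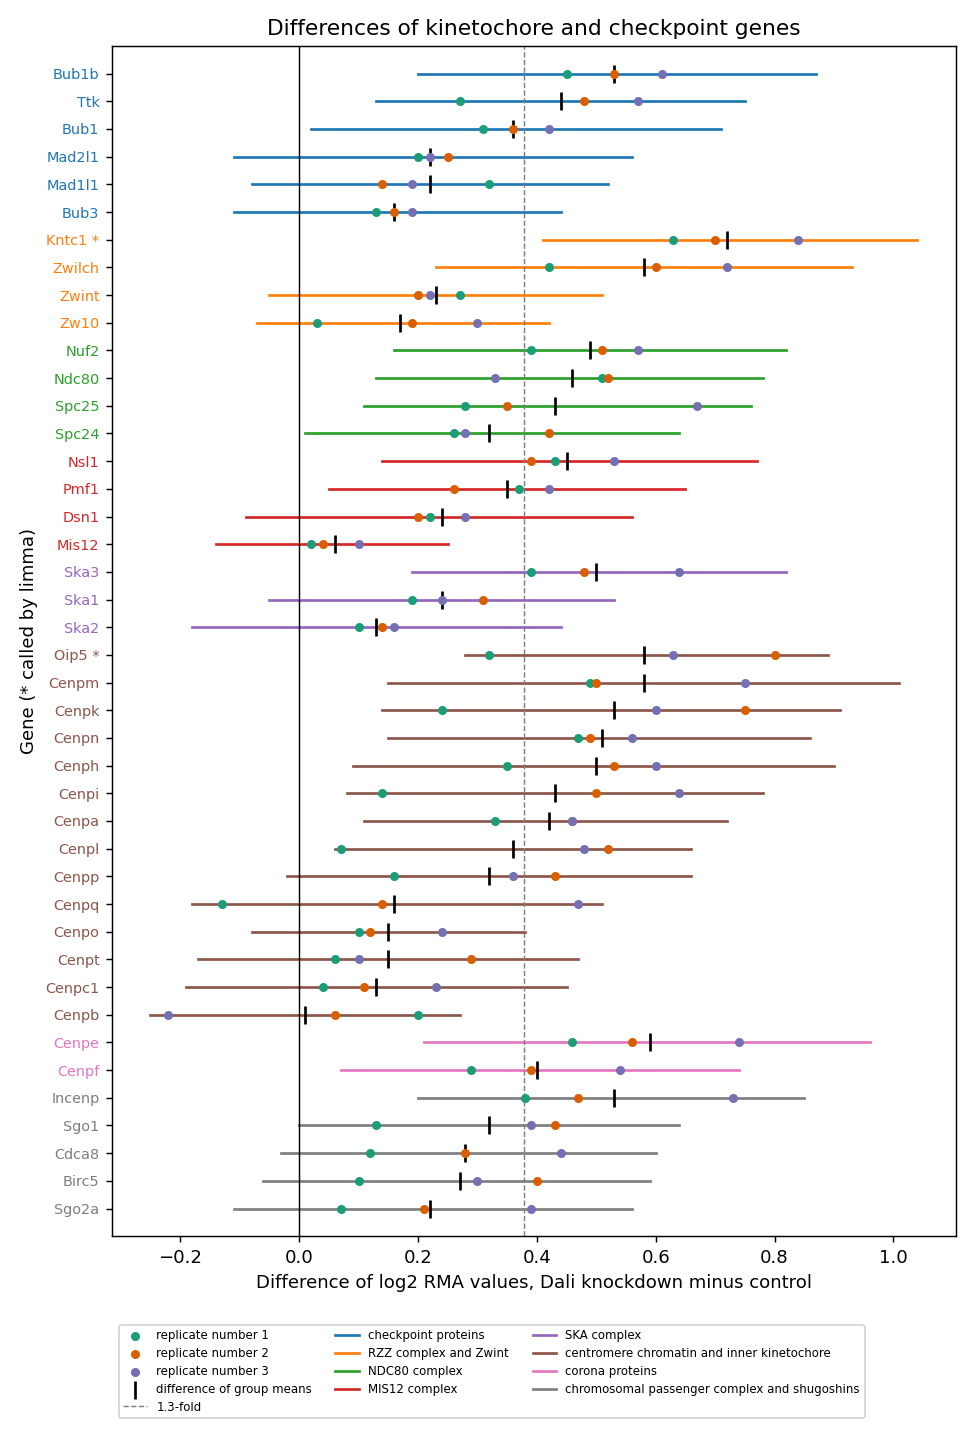
Difference of log2 RMA values, Dali knockdown minus control (horizontal axis), for each of the 42 genes (vertical axis, coloured by role), with points for the pairs of arrays that share a number, black ticks for the difference of group means and lines for the 95% interval of the limma fit. Kntc1 (0.72) and Oip5 (0.58) carry the asterisk of a call, and 40 genes have 3 points above 0.

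The corona is the outermost layer, which captures microtubules early in mitosis. Both corona genes in the list were past the fold limit, with 0 called by limma and 2 with the replicate block, and both had an unadjusted p under 0.05. Cenpe, a plus-end kinesin that brings chromosomes to the spindle equator, had 10.57, 10.03 and 10.31 in knockdown arrays, against 10.11, 9.47 and 9.56 in control arrays. Its difference was the second largest of the 42 (0.59, SE 0.18, limma adjusted p = 0.15, or 0.011 and called with the block), but control replicate 1 lay above knockdown replicate 2. Cenpf, a large coiled-coil protein of the corona, had 11.33, 10.93 and 11.13 in knockdown arrays, against 11.04, 10.54 and 10.59 in control arrays. The same arrays crossed in Cenpf (difference 0.40, SE 0.16, limma adjusted p = 0.29, or 0.025 and called with the block).

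The chromosomal passenger complex carries the kinase Aurora B to the centromere, where it releases faulty attachments, and shugoshins guard cohesion there. The median difference of the 5 genes was 0.28, and 0 were called by limma, or 1 with the replicate block, while 2 had an unadjusted p under 0.05. Incenp, the scaffold, had 10.73, 10.39 and 10.70 in knockdown arrays, against 10.35, 9.92 and 9.97 in control arrays. It was the only gene of this group with separate arrays, by the narrow step from control replicate 1 to knockdown replicate 2 (difference 0.53, SE 0.15, limma adjusted p = 0.14, or 0.015 and called with the block). Cdca8, known as borealin, had 10.69, 10.43 and 10.65 in knockdown arrays, against 10.57, 10.15 and 10.21 in control arrays. Control replicate 1 lay among its knockdown arrays (difference 0.28, 95% interval -0.03 to 0.60). Sgo1, which protects centromeric cohesin, had 10.44, 10.26 and 10.56 in knockdown arrays, against 10.31, 9.83 and 10.17 in control arrays. Its groups overlapped in the same way (difference 0.32, SE 0.15, limma adjusted p = 0.39). Birc5, or survivin, spanned 10.28 to 10.59 in knockdown arrays, against 9.88 to 10.36 in control arrays (difference 0.27). Sgo2a spanned 10.94 to 11.38 in knockdown arrays, against 10.73 to 11.21 in control arrays (difference 0.22). Neither was called in either fit.

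Other lists of the same pathway had lower median differences, although single genes in them differed by as much, and the difference between lists was not tested. Of 25 further kinetochore genes, 23 were measured with a median difference of 0.16. Of the 11 tested, 0 were called by limma, or 6 higher with the replicate block. Over all probe sets tested, 0.367% rose by limma and 2.77% with the block. An unadjusted p under 0.05 was found for 9 of the 23, against 11.1% of all genes. Cenpu of the inner network had 10.25, 10.01 and 10.32 in knockdown arrays, against 9.81, 9.56 and 9.63 in control arrays (difference 0.52, SE 0.14, limma adjusted p = 0.11, or 0.013 and called with the block). Knl1, the platform on which Bub1 and Zwint assemble, had 11.32, 10.95 and 11.24 in knockdown arrays, against 10.90, 10.43 and 10.70 in control arrays (difference 0.49, SE 0.15, limma adjusted p = 0.17, or 0.012 and called with the block). Trip13, an ATPase that remodels Mad2l1, had the largest difference of this list (0.60, SE 0.18, limma adjusted p = 0.14, or 0.0089 and called with the block) and is named after its value was seen. These 3 genes had groups that did not overlap. All knockdown arrays lay above all control arrays for 8 of the 23, against 8.59% of all annotated probe sets.

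Among 25 measured genes of the anaphase-promoting complex, which the checkpoint inhibits, and of its partners and substrates, the median was 0.17. Knockdown arrays all lay above control arrays for 7 of the 25 and below for 2. The shares of all annotated probe sets were 8.59% and 6.84%. Of the 13 tested, 1 rose, or 2 with the replicate block, and 0 fell. Over all probe sets tested, 0.367% rose, or 2.77% with the block. The gene that rose was Fbxo5, which encodes Emi1, an inhibitor of that complex outside mitosis. It had 11.09, 10.86 and 10.98 in knockdown arrays, against 10.67, 10.10 and 10.30 in control arrays, and rose 1.53-fold (difference 0.62, SE 0.16, limma adjusted p = 0.094). Its groups did not overlap. Its adjusted p was 0.19 without the variance filter, 0.49 without knockdown replicate 1, 0.34 without control replicate 2 and 0.10 without control replicate 3, and it was not called in any of these 4. Among 15 kinases and phosphatases that act at kinetochores, the median was 0.13. Of the 9 tested, 0 were called, or 1 higher with the block, which was Plk1. An unadjusted p under 0.05 was found for 5 of the 15, against 11.1% of all genes. Knockdown arrays all lay above control arrays for 6 of the 15. Cdk1, the kinase that drives entry into mitosis, had 13.06, 12.99 and 13.12 in knockdown arrays, against 12.83, 12.65 and 12.75 in control arrays (difference 0.32, limma adjusted p = 0.33). Ppp1cc, the catalytic subunit of the phosphatase that silences the checkpoint, had 12.60, 12.55 and 12.59 in knockdown arrays, against 12.33, 12.28 and 12.32 in control arrays (difference 0.27, limma adjusted p = 0.39). Both had separate groups with little spread, and their differences stayed below the fold limit.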

How the data were processed

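RNA of 6 samples, 3 Dali knockdown and 3 control, was measured on Affymetrix Mouse Gene 1.0 ST arrays. The authors background corrected and quantile normalised the arrays, summarised probe sets by RMA, and deposited values on the log2 scale (2.76 to 14.8), which is the scale of every level here. Versions of their tools (RMA and limma per the labels, oligo and genefilter in the methods) are not given in the sources used here. Of 35556 rows, an annotation table paired 21789 with 1 gene symbol and 1621 with several, and the 12146 others were left unnamed and out of the tests. Rows with several symbols named no gene, and 0 symbols changed against the GRCm38.p6 table.

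Two-sided tests between the groups used lmFit and eBayes of limma 3.58.1 (R 4.3.3), after the study's methods. Its variance cut-off was read as the median of the interquartile range (0.147) over the 23410 annotated probe sets, which left 11705. Calls needed a Benjamini-Hochberg adjusted p under 0.1 and a fold of at least 1.3. Values of genes that did not pass the filter come from the unfiltered fit, and intervals are 95% intervals of the fit. The number of arrays limits precision. An exact permutation test of 3 against 3 arrays cannot go below p = 0.1 and was not used. The procedure was tested on simulated data with planted differences larger than any described here and with arrays independent of each other. That test does not show how often differences of the sizes described here are called.

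The members and lists were chosen with earlier results of these data known. Array by array values are given for called genes, for up to 3 further genes of each role with the smallest p, for the 6 checkpoint proteins and for the 6 genes with the largest p, 33 in all, and ranges for the other 9. From the other lists, called genes are named, or where none was called the 2 with the smallest p.

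Replicate numbers from the labels were compared as pairs. Deviations from group means correlated at 0.141, 0.646 and 0.655 for numbers 1, 2 and 3. Control replicate 1 correlated more with knockdown replicate 2 (0.202) than with knockdown replicate 1, so pairing by number was not clear for number 1. The blocked fit is given as an alternative where it changed a call. Alternatives were other filters, normalisations, thresholds and variance models, array weights, the block and leaving out each array.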

Additional observations from a re-analysis of the deposited data

How the results depend on the processing

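Changing the filter, the threshold, the block or the intensity trend leaves the group means as they are, so these settings could not turn a sign. Centring arrays on their medians, renewed quantile normalisation and array weights could. All 42 differences stayed above 0 under these, with lowest values of 0.04, 0.04 and 0.01. Settings of both kinds changed how many genes were called. With the replicate block 19 of the kinetochore and checkpoint genes rose, also without the variance filter, and 31 with the block and no fold limit, which was chosen after seeing the data. With array weights 16 rose, against 3.13% of all probe sets tested. The count was 0 without the variance filter (0.0513% of all probe sets tested rose) and with unnamed rows in the filter (0%). It was also 0 with a filter on dim probe sets (0.0854%) and at an adjusted p under 0.05 (0.0598%). It was 1 when arrays were quantile normalised again (0.214%). Over all probe sets 133 were called, against 896 with the block, 888 with the block and no variance filter, 41 without the variance filter, 0 with unnamed rows in it, 52 with the filter on dim probe sets, 87 after renewed quantile normalisation, 1148 with array weights, 191 with an intensity trend and 32 at an adjusted p under 0.05. Of the 133, 43 rose and 90 fell, or 57 and 71 with arrays centred on their medians. The cause of these changes was not tested.

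Leaving out each array in turn gave 0 to 12 kinetochore and checkpoint genes, 4 to 508 probe sets in all and a median difference of 0.25 to 0.46, with the lowest median without control replicate 2 and the highest without control replicate 1. The sign turned for Cenpb without knockdown replicate 1 (-0.01), control replicate 1 (-0.06) or control replicate 2 (-0.04), for Cenpc1 without control replicate 3 (-0.01) and for Cenpq without knockdown replicate 3 (-0.01). Over these omissions the highest differences were 0.14 for Cenpb, 0.22 for Cenpc1 and 0.28 for Cenpq. Over all single genes and settings, 677 values kept their direction and their side of the threshold, 59 gained a call, 15 lost one and 5 turned sign. These counts include the settings in which only the call, and not the difference, could change. Standard errors of the 42 differences ran from 0.09 to 0.20, which limits what 3 arrays per group can resolve.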
